A study of Mus musculus with 6 samples.

Results

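The imprinted genes described here are 10 genes that set the pace of fetal growth: Igf2, Dlk1, Peg3, Mest, Ndn and Plagl1, which are read from the paternal allele, and H19, Meg3, Igf2r and Grb10, which are read from the maternal allele in most tissues. The genes were chosen with earlier results of these data known. Their probe sets were then taken by annotation alone, as every probe set that names exactly 1 of these genes, and each was kept apart. There were 39 such probe sets among the 45101 of the array. Of these, 37 name the member gene by itself and 2 name a further gene as well. The only H19 probe set is one of these, since it also names Mir675, a microRNA gene that lies inside H19, and it is called the Mir675/H19 probe set below. The other also names Airn, the antisense transcript that overlaps Igf2r.

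The arrays carry RNA of B6CBAF1/J embryonic fibroblasts, from the mouse, that were being reprogrammed, that is, driven toward a pluripotent state by added transcription factors. All cells received SOX2 and KLF4. The O(5R)SK combination added an OCT4 version named 5R in the labels, which do not explain the name, and the O(WT)SK combination added wild-type OCT4. The medium was that of embryonic stem cells, containing serum and leukemia inhibitory factor, and cells were taken on days 3, 5 and 7, with 1 Affymetrix array for each combination and day. There were thus 6 arrays and no replicate on any day, and starting fibroblasts without factors were not analysed here.

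An imprinted gene is copied from only 1 of its parental alleles, because DNA methylation laid down in the egg or the sperm tells the alleles apart. Igf2 and H19 are neighbours that share enhancers, with the insulator protein CTCF and the methylation of the control region between them deciding which allele uses them. Dlk1 and Meg3 form a second pair of neighbours that are read from opposite parental alleles. Fetal fibroblasts are known to express many of these genes, which are turned down in most tissues after birth, and faulty Dlk1-Meg3 imprinting is a known defect of some induced pluripotent lines.

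The values are intensities on a linear scale, and the 2% trimmed mean was 500 on every array. The highest intensity was 34285 on the O(5R)SK array of day 7 and 40353 to 47606 on the other 5. Across probe sets, r between 2 arrays on the log2 scale was 0.974 to 0.982. All 10 fibroblast markers fixed for the check were measured above the low-value filter, and 0 of them passed the test between day 7 and day 3. Their differences lay between -0.71 and 0.29, with a smallest adjusted p of 0.0574 with limma. Their summed intensity was 137155, 133247 and 115977 over the days in O(5R)SK and 143925, 152495 and 157635 in O(WT)SK. Among 8 markers of pluripotent cells, Nanog, Zfp42, Sall4 and Tdgf1 stayed below the filter, while Fbxo15 rose on day 7 against day 3 (adjusted p = 0.0489 with limma) and Utf1, Esrrb and Dppa5a did not pass. Fbxo15 read 37.4, 88.4 and 349 over the 3 days in O(5R)SK and 3.96, 28.3 and 53.4 in O(WT)SK. Its call was lost with quantile normalization (adjusted p = 0.0509), without the low-value filter (0.180 adjusted) and with any 1 array left out (0.0606 to 0.217 adjusted). Differences are given on the log2(intensity + 16) scale, which understates those of dim probe sets. The median of the arrays' log2 values was itself 0.10 higher on day 7 than on day 3. For O(5R)SK minus O(WT)SK this median differed by -0.0080 on day 3, -0.0066 on day 5 and 0.12 on day 7. Small differences between the combinations are to be read against that shift.

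Of the 39 probe sets, 31 had a mean above the filter (an intensity of 33.4, at the 40th percentile of the means) and were tested. All 11 probe sets of Meg3, all 3 of Grb10, all 3 of Plagl1 and the single ones of Mest and H19 were tested. The same was true of 1 of 2 for Igf2, 1 of 2 for Dlk1, 3 of 5 for Peg3, 5 of 8 for Ndn and 2 of 3 for Igf2r. The probe sets of 1 gene share their transcript and are not replicates of each other.

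The sequences below belong to the Igf2 and H19 pair, on which the results turn. They come from RefSeq on the GRCm38.p6 build, and the arrays measured neither the mature microRNAs nor the start site in use. Mir675 lies inside H19 and Mir483 inside Igf2, both on the minus strand of chromosome 7. The mature microRNAs are given with the seed, bases 2 to 8, in capitals, and the 4 seeds all differ.
mmu-miR-675-5p, chr7:142577112-142577133: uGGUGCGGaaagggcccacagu
mmu-miR-675-3p, chr7:142577078-142577099: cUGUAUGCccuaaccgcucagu
mmu-miR-483-5p, chr7:142654968-142654989: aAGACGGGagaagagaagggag
mmu-miR-483-3p, chr7:142654932-142654952: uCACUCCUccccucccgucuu

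Igf2 has 4 start sites with a promoter window of 300 bases in RefSeq, all on the minus strand. The windows hold 2, 14, 24 and 7 CpG dinucleotides, the sites at which DNA can be methylated, against a median of 7 over 32851 windows of 27025 genes. Those with the fewest and the most are shown with each CpG in capitals, because they show how differently the starts of 1 imprinted gene are built.
Igf2, chr7:142666767-142667066: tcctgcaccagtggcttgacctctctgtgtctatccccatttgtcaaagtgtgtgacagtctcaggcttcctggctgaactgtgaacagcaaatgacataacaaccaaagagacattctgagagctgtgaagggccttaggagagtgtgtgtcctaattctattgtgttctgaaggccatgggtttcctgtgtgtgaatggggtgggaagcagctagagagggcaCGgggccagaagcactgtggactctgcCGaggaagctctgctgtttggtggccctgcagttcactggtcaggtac
Igf2, chr7:142658755-142659054: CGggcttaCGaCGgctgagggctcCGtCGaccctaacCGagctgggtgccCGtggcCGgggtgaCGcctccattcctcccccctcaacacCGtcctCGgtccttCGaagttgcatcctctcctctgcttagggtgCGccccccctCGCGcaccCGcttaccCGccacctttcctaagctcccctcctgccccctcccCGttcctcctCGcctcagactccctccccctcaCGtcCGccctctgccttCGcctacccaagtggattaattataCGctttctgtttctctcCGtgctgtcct
The CpG-rich window has more CpG than 80.0% of all windows. The 16 windows of 9 member genes held 1 to 45 CpG, with a median of 13, and the richest was a Grb10 window (H19 has no entry). The letters TGCCGC, the motif of the imprint-guarding protein ZFP57, occurred on either strand in 6 of the 16 member windows and in 11.6% of all windows. Of these 6, 2 are Mest windows whose starts lie 3 bases apart, so that they are nearly the same bases. A match describes these letters and is no binding site.

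Igf2, which encodes the fetal growth factor IGF2, was the only member to pass the test between day 7 and day 3. Other members passed only under some alternative settings, given below. The intensity of the tested Igf2 probe set was 3207 on day 3, 1924 on day 5 and 1226 on day 7 in O(5R)SK. From O(WT)SK it was 3525, 1811 and 1241 on the same days. The level was lower at each later day in both combinations, and the arrays of day 7 lay well below those of day 3. It fell by 1.43 on the log2 scale on day 7 against day 3 (SE 0.120, 95% interval -1.75 to -1.11), a 2.70-fold lower level over 2 arrays a side, with limma's adjusted p = 0.0306. The change was -1.38 within O(5R)SK and -1.49 within O(WT)SK, each from 1 array a side. Most of it was already present on day 5, at -0.73 in O(5R)SK and -0.95 in O(WT)SK relative to day 3. The second Igf2 probe set, too dim to be tested, had intensities of 60.4, 36.3 and 31.2 in O(5R)SK and 55.4, 14.7 and 11.2 in O(WT)SK over the 3 days, and was likewise lowest on day 7.

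The fall of Igf2 ranked 75th in size among the 27022 probe sets tested, with 0.278% falling at least as far. Over the whole array 653 probe sets passed between day 7 and day 3, or 2.42%, of which 443 were higher and 210, or 0.777%, were lower. Among the 31 member probe sets 1 passed, and 8 had an unadjusted limma p under 0.05, against 6463 of all 27022. Both counts are near the background, so neither is a result about the imprinted genes as a set. At least 2-fold lower in both combinations were 153 probe sets (0.566%), among them that of Igf2 and no other member. Leaving out any 1 of the 6 arrays kept the fall of Igf2 between -1.52 and -1.35, but it no longer passed. Each such fit has fewer residual degrees of freedom. Leaving out an array of day 5 cannot move this difference, which stayed at -1.43. Testing with no low-value filter took the adjusted p of Igf2 to 0.172, above the threshold of 0.05. With all arrays set to a common median the fall was -1.54 (adjusted p = 0.0190).

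**Figure D1:**
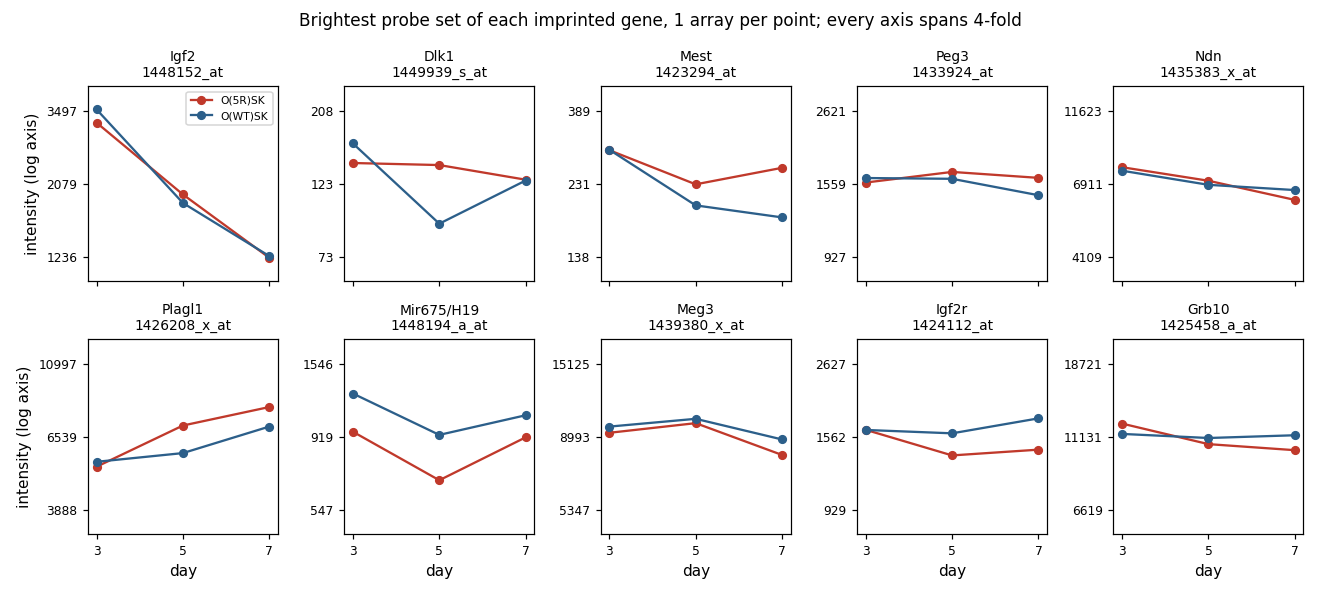
Intensity of the brightest tested probe set of each of the 10 imprinted genes (log axis, each spanning 4-fold) against the day, with 1 array per point, O(5R)SK in red and O(WT)SK in blue. Igf2 drops in both combinations to 1226 and 1241 on day 7, while the other 9 stay within a narrower band.

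H19 is the long noncoding RNA made from the other parental allele of the Igf2 locus. The Mir675/H19 probe set read 954, 675 and 916 on days 3, 5 and 7 in O(5R)SK. From O(WT)SK it read 1251, 932 and 1072. Both courses were lowest on day 5 and higher again on day 7. The difference of day 7 from day 3 was -0.14 (SE 0.122, 95% interval -0.46 to 0.19, adjusted p = 0.540), and this interval does not overlap that of Igf2. The difference between these 2 genes was not itself tested.

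The neighbours Dlk1 and Meg3 did not pass the test. Dlk1, a transmembrane protein of fetal and stem-like cells, read 143, 141 and 127 in O(5R)SK and 164, 92.8 and 126 in O(WT)SK over the 3 days. The O(WT)SK array of day 5 was the lowest of the 6, and day 7 minus day 3 was -0.25 (SE 0.204, adjusted p = 0.510). Its other probe set stayed between 2.49 and 29.7, below the filter. Meg3 is a long noncoding RNA of the maternal allele, and its brightest probe set read 9259, 9917 and 7908 in O(5R)SK and 9676, 10227 and 8830 in O(WT)SK. Day 5 was highest in both combinations, and day 7 minus day 3 was -0.18 (SE 0.112, 95% interval -0.48 to 0.12, adjusted p = 0.394).

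The 11 Meg3 probe sets did not run together. Day 7 minus day 3 was negative in 7 and positive in 4, between -0.55 at 1429257_at (adjusted p = 0.111) and 0.51 at 1436057_at (adjusted p = 0.146). The first of these read 182, 207 and 121 in O(5R)SK and 161, 144 and 103 in O(WT)SK. Probe set 1428764_at ran the other way, at 130, 220 and 174 in O(5R)SK and 154, 239 and 232 in O(WT)SK, a difference of 0.46 (adjusted p = 0.132). The 5 brightest of the 11 lay between -0.20 and -0.021, a narrower range than the 6 dimmer ones. Rian and Mirg, noncoding RNAs made from the same cluster downstream of Meg3, had differences of -0.21 (adjusted p = 0.347) and -0.70 (adjusted p = 0.0946).

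The remaining paternally expressed genes are regulators of growth and cell death. Peg3, a zinc finger protein, read 1570, 1693 and 1623 in O(5R)SK and 1621, 1612 and 1435 in O(WT)SK at its brightest probe set, with day 7 minus day 3 at -0.064 (SE 0.120). Its 3 tested probe sets lay between -0.35 and 0.0028, and the 2 others never read above 12.7. Mest, a hydrolase-like protein of mesoderm, read 293, 230 and 259 in O(5R)SK and 294, 198 and 182 in O(WT)SK, a difference of -0.41 (SE 0.157, adjusted p = 0.214). Ndn encodes necdin, which restrains cell growth. Its brightest probe set read 7764, 7051 and 6152 in O(5R)SK and 7573, 6850 and 6599 in O(WT)SK. All 5 tested Ndn probe sets were lower on day 7 in value, between -0.38 and -0.11, but the smallest adjusted p was 0.183.

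Plagl1, the zinc finger factor also called Zac1, ran the other way. Its brightest probe set read 5288, 7090 and 8087 in O(5R)SK and 5476, 5827 and 7037 in O(WT)SK. Each later day was higher in both combinations, and day 7 minus day 3 was 0.49 (SE 0.136, 95% interval 0.13 to 0.85), which did not pass (adjusted p = 0.136). It did pass when only probe sets above the 60th percentile were tested (adjusted p = 0.0465) and with a trended, robust prior (adjusted p = 0.00987). The 2 dim Plagl1 probe sets had differences of 0.50 and 1.17, the larger at 1450533_a_at, where the array of O(WT)SK on day 3 read 5.93 and the other 5 between 36.5 and 125.

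Igf2r and Grb10 act against IGF signalling, the one as the receptor that takes IGF2 to the lysosome, the other as an adaptor that binds and restrains the insulin and IGF1 receptors. Igf2r read 1642, 1369 and 1426 in O(5R)SK and 1641, 1602 and 1782 in O(WT)SK at its brightest probe set, a difference of day 7 from day 3 of -0.042 (SE 0.133). Its other tested probe set, 1424111_at, read 1076, 967 and 1323 in O(5R)SK and 1079, 1121 and 1492 in O(WT)SK, a difference of 0.38 (SE 0.120, adjusted p = 0.165). The 95% intervals of the 2 probe sets, -0.40 to 0.31 and 0.058 to 0.70, overlap. The Airn/Igf2r probe set was below the filter, between 21.6 and 43.7. The 3 Grb10 probe sets had differences between -0.25 and -0.14, and the brightest read 12236, 10572 and 10127 in O(5R)SK and 11369, 11044 and 11262 in O(WT)SK.

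**Figure D2:**
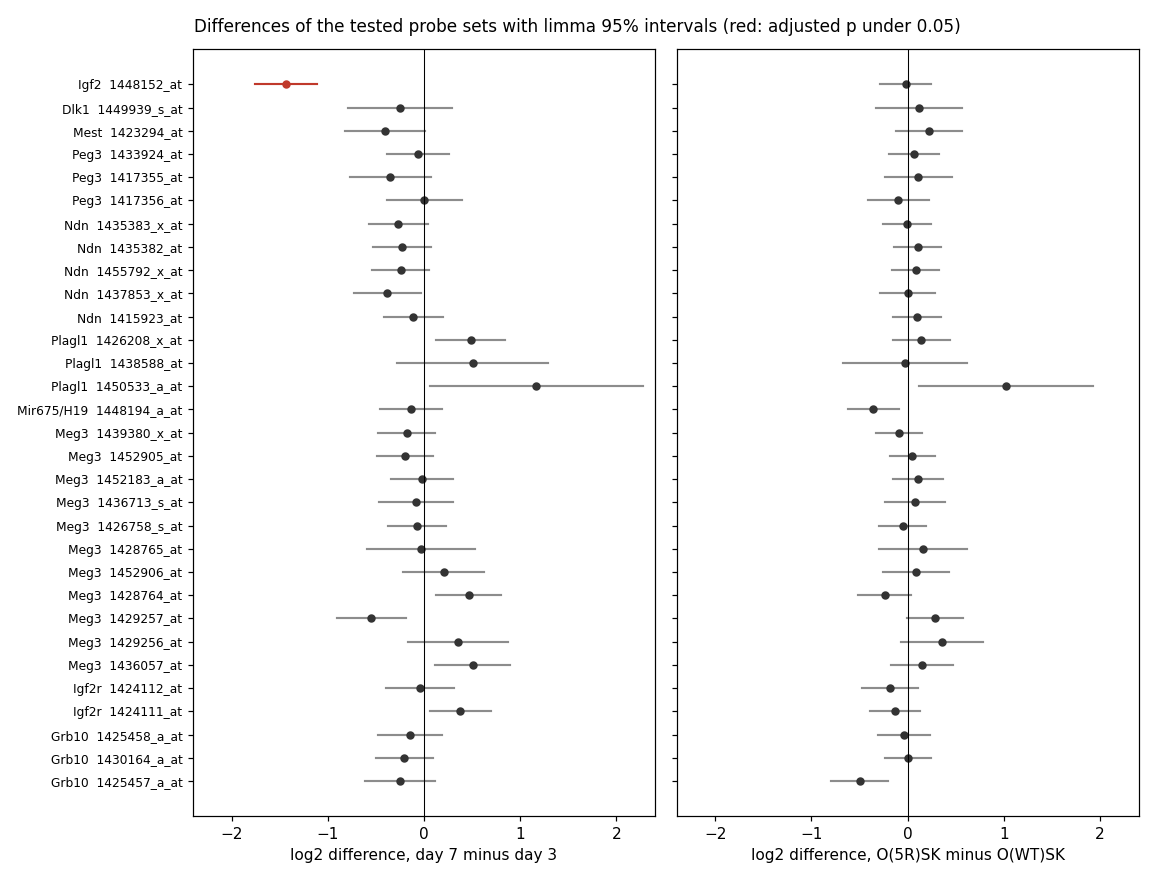
Log2 differences of the 31 tested probe sets with limma's 95% intervals (points and lines), day 7 minus day 3 on the left and O(5R)SK minus O(WT)SK on the right. Only the Igf2 probe set, in red, passes the adjusted p of 0.05, at -1.43 in the left panel.

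Between the 2 OCT4 versions no member passed. Over the whole array 0 of 27022 probe sets passed for O(5R)SK minus O(WT)SK (0% called with limma), 2333 had an unadjusted p under 0.05, and the smallest adjusted p was 0.435. Igf2 averaged over the 3 days differed by -0.022 (SE 0.0984, 95% interval -0.28 to 0.24). Differences anywhere within that interval are not told apart from 0 here. The change of Igf2 with day was also set against itself in the 2 combinations. Its slope differed by 0.12 per 4 days (SE 0.256, 95% interval -0.58 to 0.82, adjusted p = 0.927), and here too 0 of 27022 probe sets passed (0%), with 2103 at an unadjusted p under 0.05.

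The Mir675/H19 probe set was lower in O(5R)SK on each day, by -0.39 on day 3, -0.46 on day 5 and -0.22 on day 7. Averaged over the days the difference was -0.36 (SE 0.100, 95% interval -0.62 to -0.090, unadjusted p = 0.0193), which did not pass (adjusted p = 0.538). Across days the intensities of the combinations overlapped, since O(5R)SK on day 3 (954) lay above O(WT)SK on day 5 (932). The fit compares them within a day. Grb10 probe set 1425457_a_at read 233, 209 and 180 in O(5R)SK against 333, 266 and 299 in O(WT)SK. Its difference of -0.50 (SE 0.113, adjusted p = 0.526) was the most negative among the members and was not shared by the other 2 Grb10 probe sets, at -0.037 and 0.0052. The most positive was 1.02 (SE 0.340, adjusted p = 0.567) at the dim Plagl1 probe set 1450533_a_at. Mest, at 0.22 (SE 0.128), read 293 in O(5R)SK against 294 in O(WT)SK on day 3, and 259 against 182 on day 7.

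The 4 maternally expressed genes all had a negative difference at their brightest probe set, between -0.36 and -0.037, and 4 of the 6 paternally expressed ones a positive one, with the 6 between -0.022 and 0.22. Grb10 turned positive with quantile normalization (0.013) and with either array of day 7 left out (0.021). The signs also depend on the probe set. Of all tested ones, 8 of 11 were positive for Meg3, 1 of 3 for Grb10 and 0 of 2 for Igf2r. For Ndn 4 of 5 were positive, and for Peg3 and Plagl1 2 of 3 each. None of the 10 brightest probe sets passed, and over all brightest probe sets tested 5912 differences were positive and 6717 negative. Among the 31 member probe sets, 7 were higher and 5 lower in O(5R)SK on each of the 3 days, against 4314 higher and 4593 lower of all 27022. On single days, 1.76% of tested probe sets differed at least 2-fold between the combinations on day 3, 1.98% on day 5 and 3.2% on day 7, each from 1 array a side. Among the tested members only Plagl1 1450533_a_at did so, higher in O(5R)SK on days 3 and 7.

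Beyond the members, 61 further imprinted genes were listed, of which 52 were on the array and 43 had a brightest probe set that was tested. The values do not tell parental alleles apart. Whether a listed gene or a member was imprinted in these cells was thus not measured. Between day 7 and day 3, 3 of the 43 fell and 2 rose, and the median was 0.014. Over all 12629 brightest probe sets tested 138 fell and 283 rose, 3.33% in all, and the median was 0.029. Tfpi2, an inhibitor of serine proteases, read 1228, 530.5 and 520.5 in O(5R)SK and 1060, 461 and 361 in O(WT)SK, a difference of -1.36 (SE 0.137, adjusted p = 0.0337). In O(5R)SK its intensities on days 5 and 7 were nearly the same, while those of Igf2 kept falling in value. Zdbf2, a paternally expressed zinc finger gene linked to body size, read 353, 215 and 136 in O(5R)SK and 341, 176 and 128 in O(WT)SK, a difference of -1.29 (SE 0.123, adjusted p = 0.0329). Slc38a4, an amino acid transporter of the fetus and placenta, read 787, 651 and 418 in O(5R)SK and 894, 633 and 445 in O(WT)SK, a difference of -0.94 (SE 0.120, adjusted p = 0.0451).

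The 2 that rose were Ddc and Nnat. Ddc, which encodes the decarboxylase that makes dopamine and serotonin and neighbours Grb10, read 1139, 2524 and 3030 in O(5R)SK and 844, 1599 and 2098 in O(WT)SK, a difference of 1.35 (SE 0.121, adjusted p = 0.0316). Nnat, the small membrane protein neuronatin, read 79.0, 169 and 170 in O(5R)SK and 74.0, 138 and 173 in O(WT)SK, a difference of 1.02 (SE 0.127, adjusted p = 0.0429). Mkrn3, a ubiquitin ligase of the Ndn cluster, had 1.22 but did not pass (SE 0.342, adjusted p = 0.136). None of the 43 passed for O(5R)SK minus O(WT)SK, where the largest were Asb4 at 0.59 (adjusted p = 0.504), Zim1 at -0.54, Ddc at 0.54, Atp10a at 0.48 and Klf14 at -0.39. Nor did any pass for the difference of slopes, where Sfmbt2 had 1.02 (adjusted p = 0.621), Klf14 1.01, Slc22a18 -0.98, Kcnq1ot1 0.89 and Mkrn3 0.84. Each of the 5 calls was lost with any 1 array left out and without the filter. That of Nnat was also lost with quantile normalization (adjusted p = 0.0621) and with arrays set to a common median (adjusted p = 0.0544).

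**Figure D3:**
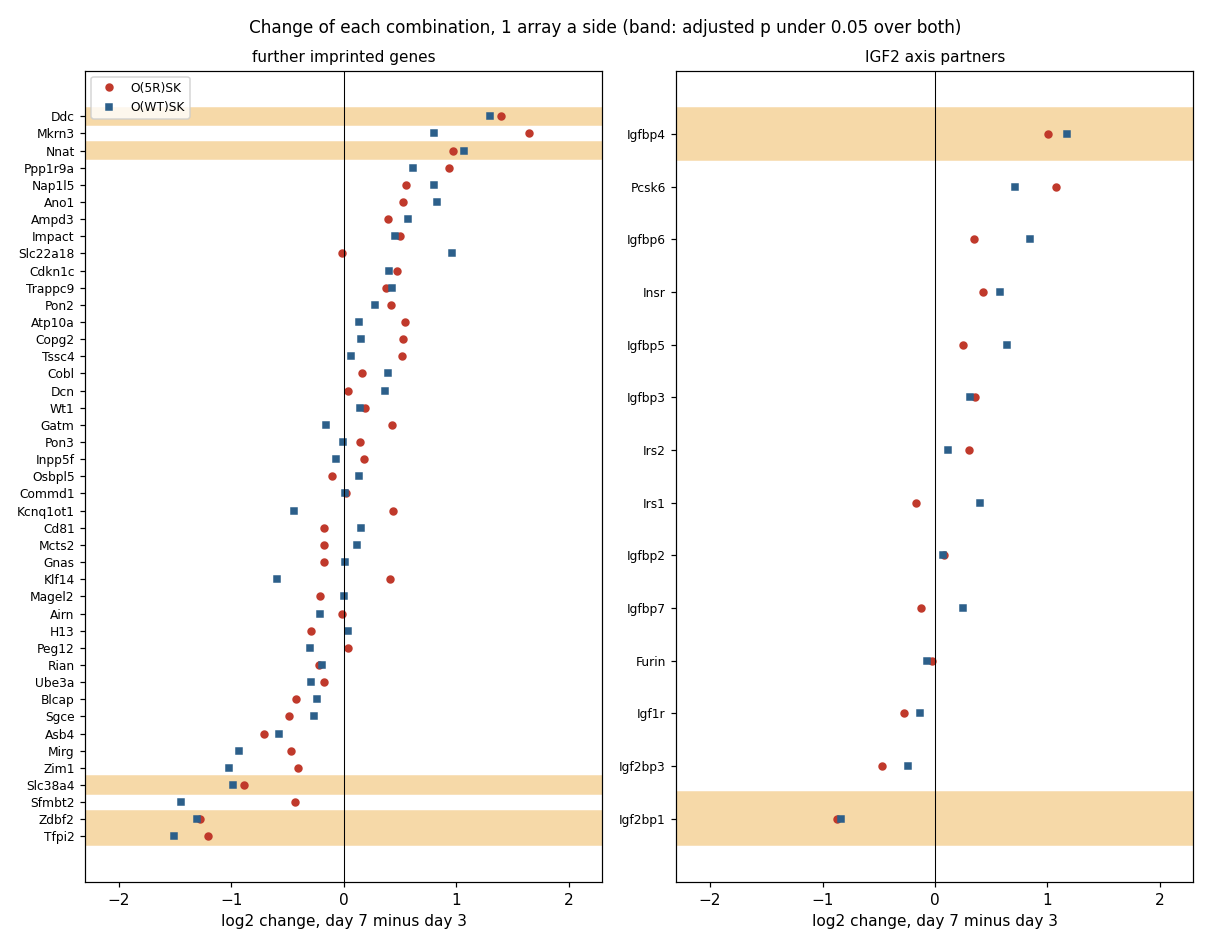
Change of day 7 relative to day 3 on the log2 scale in each combination, 1 array a side (O(5R)SK red circles, O(WT)SK blue squares), for the 43 further imprinted genes tested (left) and the 14 IGF2 axis partners tested (right). Shaded rows pass the test over both combinations, from Ddc at 1.35 to Tfpi2 at -1.36 on the left.

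Genes that act with IGF2 were listed as well, 15 in number, of which 14 were on the array and all of these were tested. Of these 1 fell and 1 rose, against the 3.33% called over all brightest probe sets tested. Igf2bp1, an RNA-binding protein of fetal tissue that binds Igf2 messages, read 823, 632 and 442 in O(5R)SK and 844, 626 and 465 in O(WT)SK, a difference of -0.86 (SE 0.110, adjusted p = 0.0451). Igfbp4, a secreted protein that binds IGFs, read 610, 924 and 1242 in O(5R)SK and 593, 1045 and 1362 in O(WT)SK, a difference of 1.09 (SE 0.121, adjusted p = 0.0377). The next largest, none of which passed, were the proprotein protease gene Pcsk6 at 0.90 (adjusted p = 0.0576), Igfbp6 at 0.59 (0.130 adjusted) and the insulin receptor gene Insr at 0.51 (0.103 adjusted). Igf1r, the signalling receptor of IGF2, had -0.20 (adjusted p = 0.348). None of the 14 passed for O(5R)SK minus O(WT)SK, where the largest were -0.27 at Igfbp6 (adjusted p = 0.640), -0.26 at Pcsk6, -0.22 at Irs1, -0.17 at Igf2bp3 and -0.17 at Igfbp7. For the slopes, where none passed either, they were -0.57 at Irs1 (adjusted p = 0.685), -0.50 at Igfbp6, -0.39 at Igfbp5, -0.38 at Igfbp7 and 0.37 at Pcsk6. Both calls were lost with any 1 array left out and without the filter.

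Of 16 genes that write, guard or remove the methylation of imprints, 15 were on the array and 11 were tested, and none passed in any of the 3 comparisons. Dnmt1, the maintenance methyltransferase, read 1476, 1033 and 1036 in O(5R)SK and 1439, 1076 and 1057 in O(WT)SK, a difference of day 7 from day 3 of -0.47 (adjusted p = 0.105). Its partners Uhrf1 and Hells had -0.39 (adjusted p = 0.157) and -0.67 (adjusted p = 0.119). Tet2, an enzyme that oxidises methylcytosine, had 0.86 (adjusted p = 0.0555), and Zfp57 had 0.91 (adjusted p = 0.0698). For O(5R)SK minus O(WT)SK the largest were Dnmt3b at 0.29 (adjusted p = 0.568), Uhrf1 at 0.25, Dnmt3a at -0.20, Smchd1 at 0.14 and Tet2 at 0.13. The slopes differed most at Setdb1, by 0.73 (adjusted p = 0.621), Hells, by 0.56, Smchd1, by 0.42, Tet2, by 0.31, and Dnmt3b, by -0.27. Methylation itself was not measured.

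Of the markers of other cells that a fibroblast culture can hold, 4 genes fell as Igf2 did, 2 of macrophages, 1 of adipocytes and 1 of muscle. Tested were 7 markers of macrophages, 4 of adipocytes, 3 of muscle, 2 of trophoblast and 3 of neurons. Over all 12629 brightest probe sets tested, 138 fell. All 8 macrophage markers listed were on the array, and 7 were tested. All 7 had a negative difference of day 7 from day 3, with a median of -1.04, and 2 fell, the lysozyme gene Lyz2 (-1.58, adjusted p = 0.0263) and the adaptor gene Tyrobp (-1.46, adjusted p = 0.0280). The summed intensity of the 8 was 8902, 4742 and 3219 over the days in O(5R)SK and 9356, 5333 and 3807 in O(WT)SK. The lowest marker, Itgam, read between 18.8 and 39.9, and none was at 0.

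Among adipocyte markers Lpl fell (-1.67, adjusted p = 0.0306) while Cebpa (-0.57), Fabp4 (-0.18) and Pparg (-0.038) did not pass and Adipoq and Cidec were below the filter. The 6 adipocyte markers on the array, of which Lpl makes up most of the sum, added up to 3988, 2235 and 1184 in O(5R)SK and 4474, 2842 and 1790 in O(WT)SK. Among skeletal muscle markers the actin gene Acta1 fell (-1.65, adjusted p = 0.0276), Des (-0.36) and Ckm (-0.024) did not pass, and Myod1, Myog, Myf5, Myh3 and Tnnt3 stayed below the filter. The 8 muscle markers, again mostly 1 gene, Acta1, summed to 12461, 7792 and 4413 in O(5R)SK and 12518, 7914 and 5244 in O(WT)SK. The 5 markers of yolk sac and liver on the array, tissues rich in Igf2 and H19, never read above 58.7 and none was tested. Of trophoblast markers 2 were tested, with a median of 0.36, and of neuron markers 3, with a median of 0.10, and none passed. The calls of Lyz2, Tyrobp, Lpl and Acta1 were lost with any 1 array left out and without the filter, as was that of Igf2. Whether macrophages, adipocytes or muscle cells were in the culture was not tested, nor was any part of theirs in the fall of Igf2. In bulk RNA, fewer cells that express a gene and less of its RNA in each cell cannot be told apart.

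**Figure D4:**
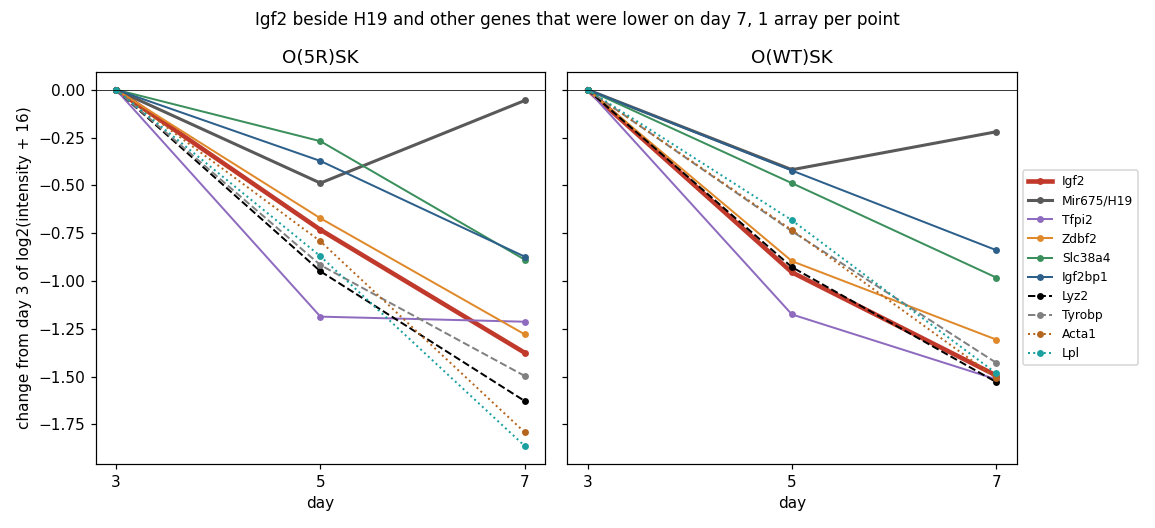
Change from day 3 of log2(intensity + 16) against the day, O(5R)SK left and O(WT)SK right, 1 array per point, for Igf2 (thick red), Mir675/H19 (grey) and 8 genes that passed the test as lower on day 7. Igf2 reaches -1.38 in O(5R)SK and -1.49 in O(WT)SK on day 7. Over both combinations its difference was -1.43. Those of Tyrobp (-1.46), Lyz2 (-1.58), Acta1 (-1.65) and Lpl (-1.67) were larger falls. Those of Tfpi2 (-1.36), Zdbf2 (-1.29), Slc38a4 (-0.94) and Igf2bp1 (-0.86) were smaller. Mir675/H19 dips on day 5 and ends near its start.

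For each of the best-known members the genes with the most similar course were found by the smallest distance between mean-centred log2 values over the 6 arrays, as a description with no test. Nearest to Igf2 were Uba6, a ubiquitin-activating enzyme, at a distance of 0.151 (r = 0.996), Crabp1, a retinoic acid binding protein, at 0.151 (r = 0.995) and Htr1b, a serotonin receptor, at 0.162 (r = 0.994). Crabp1 read 2679, 1421 and 964 in O(5R)SK and 2813, 1450 and 1046 in O(WT)SK. Nearest to the Mir675/H19 probe set were Cmc2 (0.134), Col18a1 (0.153) and Abcb4 (0.172), and nearest to Dlk1 were Chaf1b (0.131), Capn15 (0.147) and Klhl29 (0.154). Nearest to the brightest Meg3 probe set were Uhrf2 (0.0517), Pnisr (0.0748) and Zdhhc2 (0.0760). None of these 12 is among the listed imprinted genes.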

How the data were processed

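RNA of 6 samples labelled by OCT4 version and day was extracted with Trizol and hybridised as biotinylated cRNA, per the labels' protocols. The deposited values are linear intensities per probe set. The submitters' processing notes name affy; how the authors summarised probes and corrected background, and which version they ran, is not given in the sources used here. Probe sets were named from the platform's annotation: 34945 name 1 gene, 932 several and 9160 none, beside 64 controls that were left out of the tests. All 10 member symbols were found in the RefSeq table of GRCm38.p6.

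Values were taken as log2(intensity + 16), and 27022 probe sets with a mean above the 40th percentile were tested. With limma 3.58.1 (lmFit and eBayes, R 4.3.3, version 1.17.8 of data.table), 1 fit had combination and day (3 levels) as terms, and a second had combination by day as a number. Each has 2 residual degrees of freedom. The p-values were Benjamini-Hochberg adjusted over all 27022, with a threshold of 0.05. Nothing says that days or combinations came from separate cultures, so the p-values reflect only differences among these 6 arrays, technical ones included. The number of arrays limits the precision. Single-day differences rest on 1 array a side and have no test.

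The members and gene lists were chosen with earlier results of these data known. Named were all member probe sets, and of each other list the genes that passed and the 5 largest differences in each comparison. A list uses the brightest probe set of each gene. For the Mir675/H19 gene the only probe set was used, although it names a second gene. Igf1r, Rian, Mirg and the marker genes that did not pass were picked once their values were known. The fit of combination and day was checked on simulated data. Tables and figures used Python 3.11.15, pandas 2.3.3, numpy 2.4.6, scipy 1.17.1 and matplotlib 3.10.9. The alternatives changed the pseudocount to 64, the filter, the normalization between arrays, the variance prior, the choice of probe sets, and left out each array in turn.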

Additional observations from a re-analysis of the deposited data

How the results depend on the processing

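With 6 arrays and 2 residual degrees of freedom, counts of probe sets past the threshold moved with the settings far more than the differences did. For O(5R)SK minus O(WT)SK the count of 0 became 2 with a filter at the 60th percentile and 55 with a trended, robust prior, and stayed at 0 with each array left out. For day 7 minus day 3 the count of 653 became 2225 with a pseudocount of 64, 2901 with the filter at the 60th percentile, 3987 with the trended, robust prior, 1288 with the brightest probe set of each gene and 0 without a filter, and ranged between 0 and 64 with each array left out. For the difference of slopes it was 3 with the trended, robust prior and 0 with each array left out. The fall of Igf2 stayed between -1.54 and -1.40 over the 7 alternatives that kept all arrays (adjusted p between 1.3e-05 and 0.172) and was -1.43 without a filter, where it did not pass. With each array left out it ranged between -1.52 and -1.35 and did not pass, and the same held for each of the 12 other genes called between day 7 and day 3 that are named above. Nnat and Fbxo15 were also lost with quantile normalization, and Nnat with a common median. Member probe sets past the threshold between day 7 and day 3 numbered 4 with the filter at the 60th percentile (Igf2 and 1429257_at of Meg3 lower, Plagl1 and 1428764_at of Meg3 higher) and 4 with the trended, robust prior (Igf2 and 1437853_x_at of Ndn lower, Plagl1 and 1424111_at of Igf2r higher). Small differences changed sign. For O(5R)SK minus O(WT)SK, quantile normalization gave 0.013 for Grb10 and 0.00040 for Ndn, and leaving out each array gave -0.076 to 0.035 for Igf2, -0.087 to 0.27 for Dlk1, -0.11 to 0.021 for Grb10 and -0.033 to 0.039 for Ndn. For day 7 minus day 3 it gave -0.15 to 0.021 for Peg3 and -0.18 to 0.094 for Igf2r. The slope difference of Igf2 was -0.0084 with arrays set to a common median and -0.30 to 0.53 with each array left out. The cause of these changes was not tested, beyond the number of probe sets tested and arrays used that each setting itself changes.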
